A study of Mus musculus with 6 samples.

Results

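The 31 genes described here encode enzymes that make purine and pyrimidine nucleotides and the deoxynucleotides used for DNA. They were taken by gene symbol, a rule that uses no measured value, but the list was chosen with earlier results of these data known. All 31 have a row in each of the 6 library tables, out of 26771 genes listed in at least 1 library, and all 31 were among the 11265 genes tested. The cells were γδT17 cells, γδ T lymphocytes that produce interleukin-17, from spleens of C57BL/6 mice that carried TCRβ-/-, a genotype both groups share and which leaves no αβ T cells with a normal receptor. Initial cells were sorted before culture (3 libraries, mice A, B and C). Induced cells were collected on day 8 of a culture with IL-1β and IL-23 and isolated with the Pan T Cell Isolation kit II, and the labels give more than 90% of them as IL-17A+ (3 libraries, mice A, B and C). Neither the age of the mice nor the gate of the Initial sort was given in the sources used here.

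Cells build purine rings step by step on phosphoribosyl pyrophosphate (PRPP), a sugar donor, as far as inosine monophosphate (IMP), from which separate branches lead to AMP and GMP. Pyrimidine synthesis first makes the ring as orotate and then joins it to PRPP to give UMP, from which UTP and CTP follow. Ribonucleotide reductase turns ribonucleotides into deoxyribonucleotides, thymidylate synthase adds the DNA-specific thymidylate, and lymphocytes that leave quiescence to divide are known to raise both supplies.

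Values are FPKM, fragment counts divided by transcript length and library size, as the authors deposited them. From the steps between low values, depth was estimated at 19200000 to 22700000 fragments per library, a rough figure at which counting alone gives a 2 kb transcript at an FPKM of 4 a coefficient of variation of 7.42 to 8.07%. Fold changes are Induced minus Initial on the log2(FPKM + 1) scale, which understates changes at low levels, with their standard error (SE). A gene rose or fell where limma gave an adjusted p under 0.05. Summed FPKM of 5 T cell markers was 1560 to 1696 in Initial and 1378 to 1502 in Induced libraries. Of these 5, Cd3d and Cd3e fell (log2 fold change -0.47 and -0.53), 0 rose and 3 did not pass. Falls were larger for the other cell types, neutrophils apart. Summed FPKM went from 1638-1924 to 70.2-118 for 7 B cell markers, from 527-1018 to 1.98-3.04 for 8 macrophage markers, and from 1217-1742 to 1.17-1.63 for 6 red cell markers, of which Alas2 had no row in any Induced library and was taken as 0. All 20 of these markers that were tested fell, and 5 neutrophil markers summed to 0 to 5.87 FPKM in Initial and 0.553 to 2.85 in Induced libraries. The part of these cells in the results below was not tested. Group and handling coincide and cannot be told apart, and in bulk libraries neither can fewer cells of a type and less RNA per cell. Il17a had 10.4 ± 4.24 and 15.9 ± 7.54 FPKM (SD, n = 3) in Initial and Induced cells and did not pass the test (limma adjusted p = 0.325).

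The 6 largest rises after culture were those of deoxynucleotide genes (Rrm2, Tk1, Tyms, Rrm1, Dut and Dck). All purine ring genes and most pyrimidine genes rose, by at most 1.12 on the log2 scale. The PRPP synthetase genes and parts of the AMP and GMP branches fell or did not pass the test, with the largest fall at -0.52, for Adssl1. Of the 31 genes, 21 rose, 5 fell and 5 did not pass. Among all tested genes 70.4% changed, with 37.3% higher and 33.1% lower. The median log2 fold change was 0.46 over the 31 genes and 0.03 over all tested genes. On the log2(FPKM + 1) scale, at least 2-fold rises were found for 7 of the 31 (Rrm1, Rrm2, Tyms, Dut, Tk1, Dck and Paics), against 12.0% of all tested genes, and at least 2-fold falls for 0 of them, against 13.2%. By the ratio of mean FPKM, Ctps (2.05) and Pfas (2.005) also reached 2-fold. The libraries of the groups did not overlap for 25 of the 31, where 75.4% of all tested genes did not overlap. Of these 25, 21 were higher and 4 lower in Induced libraries, against 40.0% and 35.4% of all tested genes. The count of rises was 19 to 24 in every alternative tried, whereas the count of falls ranged from 0 to 5 and was 0 when each library was scaled by its CD3 chain and Trdc levels (CD3/Trdc scaling). That scaling moves the median of all genes up by 0.21 on the log2 scale.

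**Figure D1:**
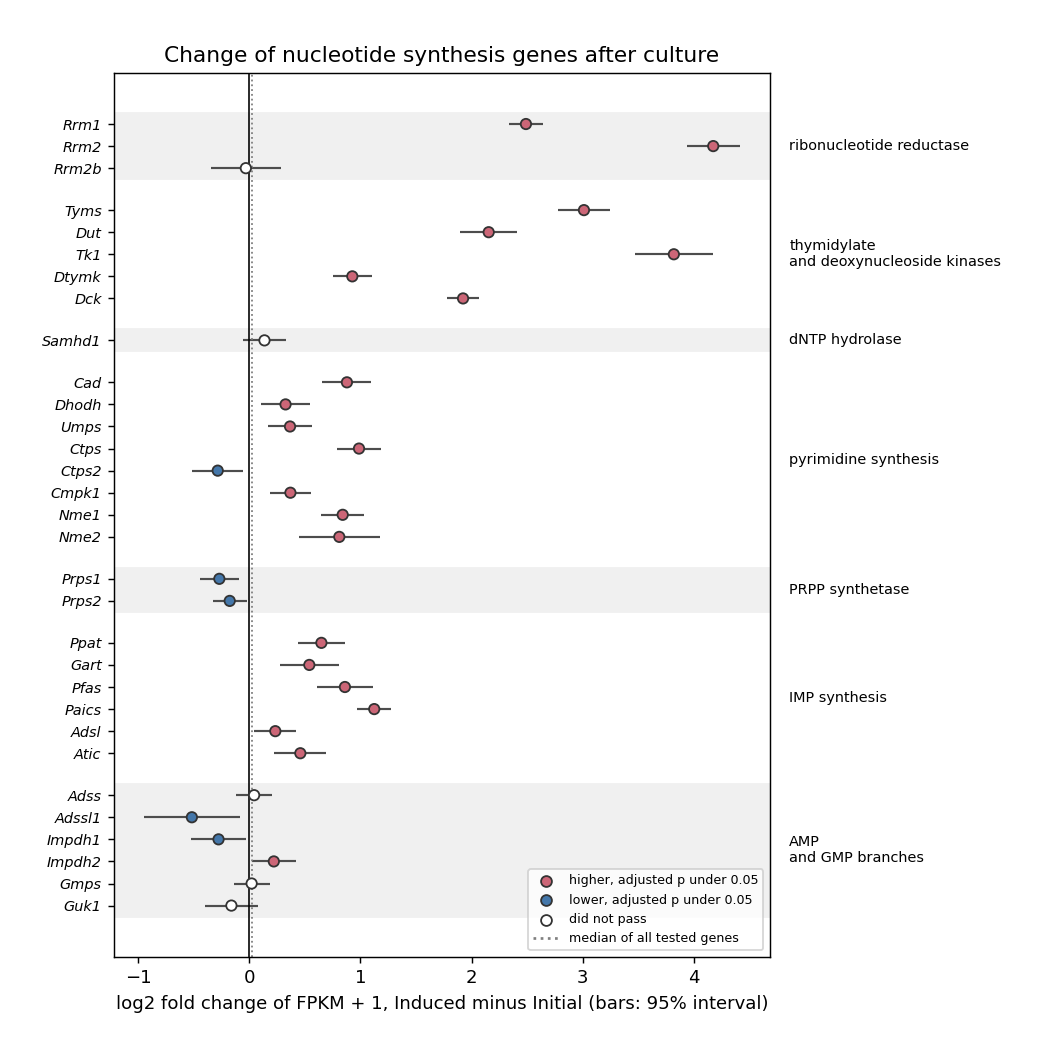
Log2 fold change of FPKM + 1, Induced minus Initial, for each of the 31 genes by role, with bars for the 95% interval (3 libraries per group) and a dotted line at the median of all tested genes. Coloured points passed the test. Rrm1, Rrm2, Tyms, Dut, Tk1 and Dck lie farthest to the right, up to 4.17 for Rrm2.

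**Figure D2:**
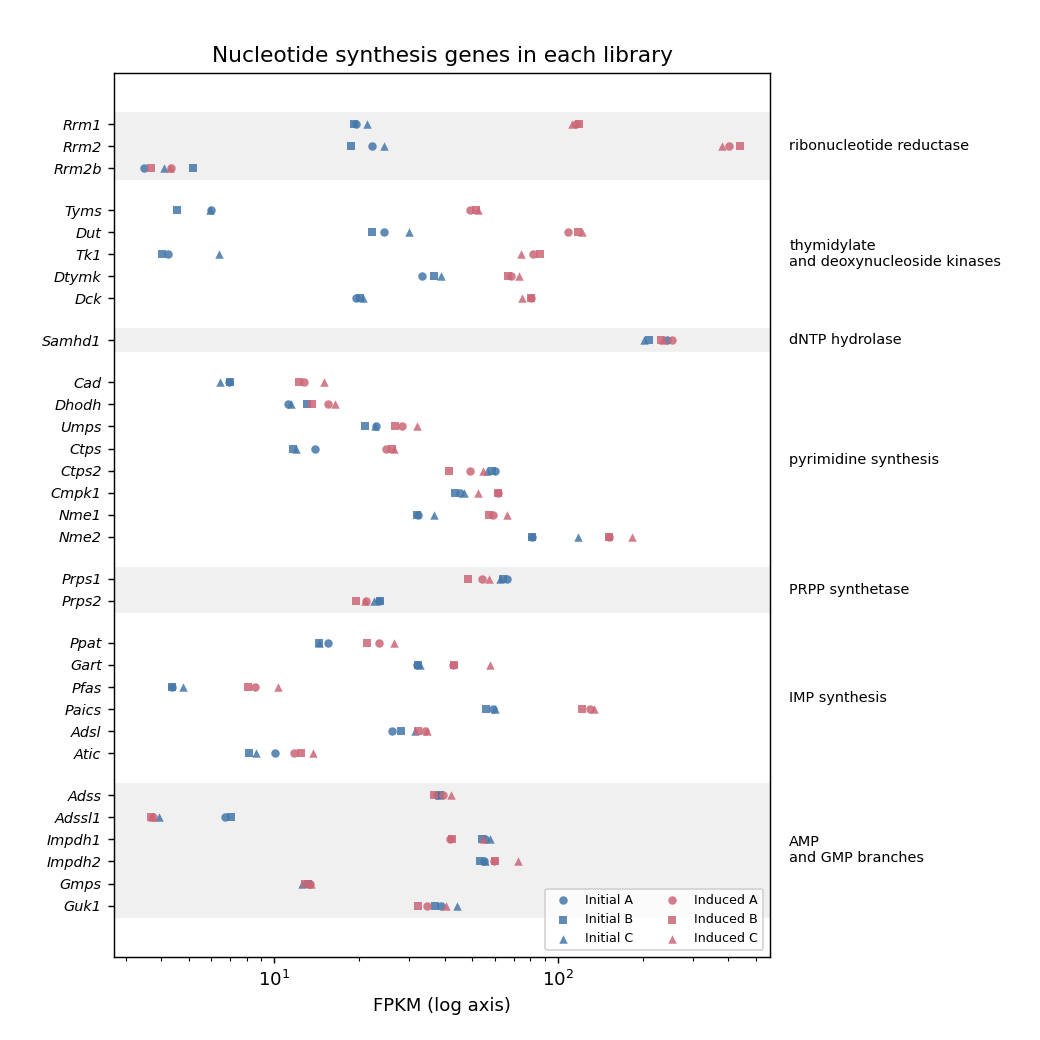
FPKM of each of the 31 genes in each of the 6 libraries, on a log axis, with colour for the group and symbol for the mouse. Rrm2, Tk1 and Tyms show the widest gaps between the groups, and Samhd1, Rrm2b, Adss, Gmps, Guk1 and Impdh1 have overlapping groups.

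Promoter letters were read from RefSeq windows of 250 bases before to 50 after each start site (build GRCm38.p6), which 28 of the 31 genes have. Rrm2b, Dhodh and Pfas have no entry there. Motifs were searched on both strands. A CCAAT box was in the windows of 10 of the 28 genes (35.7%), against 41.1% of 27025 genes with a window. The E-box CACGTG was in 6 of 28 (21.4%, against 8.09%), in Atic, Dtymk, Tyms, Paics, Impdh2 and Nme1. These 6 rose, as did 21 of all 31 genes, and a link of E-box and rise was not tested. An E2F-type motif (TTTCGCGC, TTTGGCGC, TTTCCCGC or TTTGCCGC) was in 2 of 28 (7.14%, against 2.61%), Ppat, which rose, and Prps2, which fell. The NRF1 motif, the palindrome in capitals in the stretch of Ctps below, was in the window of Ctps alone among the 28 (3.57%, against 1.07%). No match overlapped a match of another motif in these 28 genes, and a match is a description of the letters only. Stretches of up to 200 bases are printed below for 7 genes, chosen because they hold a motif and cover the large rises, the moderate rises and a fall.

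Ribonucleotide reductase is built from a large catalytic subunit and a small radical-carrying subunit, and the small subunit comes in an S-phase form and a p53-inducible form. The genes of the large subunit, Rrm1, and of the S-phase small subunit, Rrm2, rose, and that of the other small subunit, Rrm2b, did not pass the test. The stretches before the start sites of Rrm2 (chr12:24708041-24708240, plus strand) and Rrm1 (chr7:102441495-102441694, plus strand) both hold CCAAT, printed in capitals, Rrm1 at 2 places and Rrm2 at 1, 50 bases before its start.
Rrm2: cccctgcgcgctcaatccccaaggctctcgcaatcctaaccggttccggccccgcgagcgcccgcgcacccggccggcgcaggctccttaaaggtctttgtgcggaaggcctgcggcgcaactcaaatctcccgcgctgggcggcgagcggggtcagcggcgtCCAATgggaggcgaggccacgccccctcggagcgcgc
Rrm1: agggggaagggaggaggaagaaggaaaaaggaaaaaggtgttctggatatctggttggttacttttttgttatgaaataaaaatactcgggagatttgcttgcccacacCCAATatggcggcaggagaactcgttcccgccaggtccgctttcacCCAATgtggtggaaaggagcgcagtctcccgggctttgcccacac
Rrm2 (ENSMUSG00000020649, chr12:24708241-24714146, GRCm38) stood at 22.1, 18.7 and 24.3 FPKM in Initial libraries A, B and C and at 403, 439 and 379 FPKM in the Induced libraries in the same order. The groups lie far apart, and the mean went from 21.7 ± 2.83 to 407 ± 30.2 FPKM (SD, n = 3), 18.8-fold. Its log2 fold change of 4.17 (SE 0.10, adjusted p = 6.0e-08) was exceeded by 0.195% of the tested genes, and Rrm2 moved from rank 18 to rank 1 among the 31 genes by mean FPKM. Rrm1 (ENSMUSG00000030978, chr7:102441695-102469771) had 19.4, 19.1 and 21.2 FPKM in Initial and 116, 119 and 112.5 FPKM in Induced libraries. Every Induced library was above every Initial library, and the log2 fold change was 2.49 (SE 0.07, adjusted p = 7.2e-08). Rrm2b (ENSMUSG00000022292, chromosome 15) had 3.48, 5.18 and 4.09 FPKM before and 4.31, 3.69 and 4.29 FPKM after culture. Its groups overlap, with Initial B the highest and Initial A the lowest of the 6, and the log2 fold change of -0.031 (SE 0.14, 95% interval -0.35 to 0.29) did not pass (adjusted p = 0.847). Its sign turned under CD3/Trdc scaling (0.15) and quantile normalization (0.044), and without Initial B (0.092) or Induced B (0.028). A processed pseudogene, Gm3362, lies within Rrm2b on the same strand at 0.725 to 1.21 FPKM, so the level of Rrm2b is uncertain.

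Ratios within a library do not move with its scaling. The ratio of Rrm2 to Rrm2b FPKM was 6.36, 3.61 and 5.94 in Initial libraries A, B and C and 93.5, 119 and 88.3 in Induced libraries. The ratio of Rrm2 to Rrm1 was 1.14, 0.981 and 1.15 in Initial and 3.47, 3.68 and 3.37 in Induced libraries. Before culture the small and large subunit messages were thus present at similar FPKM, and afterwards the small subunit message exceeded the large in each library. The differences of the log2 ratios were 4.27 and 1.69. In an exact two-sided permutation test each gave p = 0.1, the smallest p that 3 libraries against 3 allow, and 0.133 adjusted over the 8 ratios compared. Summed over the 3 reductase genes, FPKM went from 45.8 ± 3.41 to 527 ± 33.3 (SD, n = 3), 11.5-fold, or from 4.23% to 25.0% of the sum over all 31 genes.

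**Figure D3:**
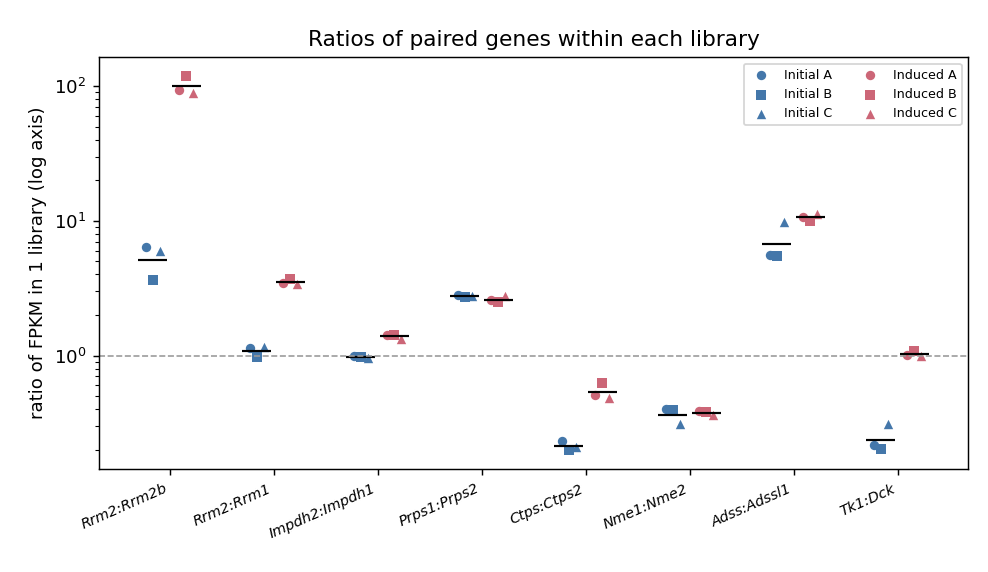
Ratio of the FPKM of paired genes within each library, on a log axis, for 8 pairs, with 3 points per group, a short bar at their geometric mean, and the dashed line at equal FPKM. Rrm2:Rrm2b shows the widest gap between the groups, and the groups overlap for Nme1:Nme2 and Prps1:Prps2.

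All 5 genes of thymidylate synthesis and the deoxynucleoside kinases rose. These are Tyms, thymidylate synthase, Dut, the dUTPase that removes dUTP and yields dUMP, Tk1 and Dck, the cytosolic kinases that salvage thymidine and deoxycytidine, and Dtymk, which phosphorylates thymidylate further. The E-box is in capitals in the stretches before Tyms (chr5:30073626-30073825, minus strand) and Dtymk (chr1:93801935-93802134, minus strand), and the reverse-strand CCAAT match of Dtymk reads ATTGG.
Tyms: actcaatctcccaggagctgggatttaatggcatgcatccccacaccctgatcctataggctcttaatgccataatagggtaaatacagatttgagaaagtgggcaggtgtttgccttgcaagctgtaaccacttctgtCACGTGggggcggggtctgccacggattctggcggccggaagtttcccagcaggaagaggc
Dtymk: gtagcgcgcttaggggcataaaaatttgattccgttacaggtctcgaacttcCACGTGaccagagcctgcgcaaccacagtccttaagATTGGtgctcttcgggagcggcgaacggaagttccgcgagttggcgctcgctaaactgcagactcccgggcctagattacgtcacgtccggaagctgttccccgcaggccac
Tk1 (ENSMUSG00000025574, chr11:117815526-117826092) had 4.21, 4.03 and 6.41 FPKM in Initial libraries and 81.8, 86.5 and 74.3 FPKM in Induced libraries. This 16.6-fold difference of the means, the next largest after Rrm2 among the 31 genes, gave a log2 change of 3.82 (SE 0.15, adjusted p = 4.4e-07). Tk1 shares 169 bases with Afmid (8.48 to 13.9 FPKM) and 10567 with Gm20708 (0 to 0.293 FPKM), both on the other strand. In the deposited tables Tk1 also shares a locus with Syngr2 (57.7 to 66.6 FPKM). The strand setting of the counting was not given in the sources used here. Tyms (ENSMUSG00000025747, chr5:30058202-30073617) had 6.00, 4.56 and 5.92 FPKM before and 49.3, 51.3 and 52.5 FPKM after culture, with a log2 change of 3.01 (SE 0.10, adjusted p = 1.9e-07). In both genes the lowest Induced library was several times above the highest Initial library. Dut had 24.4, 22.2 and 29.97 FPKM in Initial and 109, 118 and 122 FPKM in Induced libraries, a log2 change of 2.15. Dck had 19.5, 20.0 and 20.6 FPKM before and 80.8, 80.6 and 75.0 FPKM after culture, a log2 change of 1.92. Dtymk, the highest of the 5 before culture, had 33.2, 36.7 and 38.6 FPKM in Initial and 68.7, 66.8 and 73.2 FPKM in Induced libraries. Its log2 fold change of 0.93 was the smallest of the 5. The groups overlapped for 0 of the 5, where 75.4% of all tested genes did not overlap (40.0% higher in Induced libraries). The sum over the 5 genes went from 92.1 ± 8.20 to 396 ± 6.79 FPKM, 4.30-fold.

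Of the salvage kinases, Tk1 gained more than Dck. The ratio of Tk1 to Dck FPKM was 0.216, 0.201 and 0.311 in Initial libraries A, B and C and 1.01, 1.07 and 0.991 in Induced libraries. Dck was thus the more abundant message before culture in each library, and afterwards the pair stood near equal FPKM. The log2 ratio differed by 2.11 (exact permutation p = 0.1, adjusted 0.133).

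Samhd1 encodes the enzyme that breaks deoxynucleoside triphosphates back down and so works against the reductase. It had 243, 211 and 202 FPKM in Initial and 252, 231 and 235 FPKM in Induced libraries, the highest mean of the 31 genes before culture and the next to highest after it. The groups overlap, since Initial A was above Induced B and C, and the log2 fold change of 0.14 (SE 0.08, 95% interval -0.06 to 0.33) did not pass (adjusted p = 0.180). It passed without Initial A (0.21, adjusted p = 0.0450) and under CD3/Trdc scaling (0.36, adjusted p = 0.00619). The reductase genes together had less summed FPKM than Samhd1 in each Initial library and more in each Induced library.

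In pyrimidine synthesis 7 of 8 genes rose and Ctps2 fell. Their changes ran from -0.28 to 0.99 on the log2 scale. Cad encodes the enzyme of the opening steps up to dihydroorotate, Dhodh the mitochondrial oxidation to orotate, and Umps the steps to UMP. Cmpk1 and the Nme kinases then carry UMP to UTP, and CTP synthase, encoded by Ctps and Ctps2, makes CTP. The NRF1 motif of Ctps (chr4:120570277-120570476, minus strand) and the E-box of Nme1 (chr11:93968026-93968220, minus strand) are in capitals.
Ctps: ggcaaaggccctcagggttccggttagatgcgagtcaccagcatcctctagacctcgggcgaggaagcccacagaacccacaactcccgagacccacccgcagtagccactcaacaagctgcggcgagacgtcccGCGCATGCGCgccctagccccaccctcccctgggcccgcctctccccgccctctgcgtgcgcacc
Nme1: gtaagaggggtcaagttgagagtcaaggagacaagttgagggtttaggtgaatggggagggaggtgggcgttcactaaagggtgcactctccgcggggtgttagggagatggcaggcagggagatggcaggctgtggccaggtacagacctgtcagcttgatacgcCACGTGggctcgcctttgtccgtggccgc
Cad had 6.90, 6.98 and 6.44 FPKM in Initial and 12.7, 12.3 and 15.0 FPKM in Induced libraries, a log2 change of 0.88 (SE 0.09, adjusted p = 7.9e-05). Dhodh had 11.2, 13.1 and 11.5 FPKM before and 15.5, 13.7 and 16.5 FPKM after culture, and Umps had 22.9, 20.9 and 22.8 FPKM before and 28.2, 26.8 and 31.9 FPKM after it. Their groups do not overlap, but Initial B and Induced B of Dhodh lie close together. The log2 fold changes were 0.33 and 0.37, and the call of Dhodh was lost without Initial A (adjusted p = 0.0562) or Induced A (adjusted p = 0.0568). Cmpk1 had 45.1, 43.4 and 46.8 FPKM in Initial and 61.8, 61.8 and 52.5 FPKM in Induced libraries, a log2 change of 0.37. Nme1 had 32.3, 31.8 and 36.5 FPKM before and 58.9, 57.5 and 66.1 FPKM after culture. Nme2, its neighbour, had 80.9, 80.9 and 118 FPKM before and 152, 152 and 183 FPKM after it, and library C was highest in both groups for both genes. Nme1 and Nme2 rose alike, by 0.84 and 0.81, and their ratio of FPKM was 0.399, 0.394 and 0.310 in Initial and 0.389, 0.379 and 0.361 in Induced libraries. The log2 ratio differed by 0.04 (exact permutation p = 1), and by -0.08 without Initial C. The genes are similar in sequence and share a locus in the deposited tables with the read-through gene Gm20390 (0.0335 to 0.489 FPKM), so the share of fragments given to each is uncertain.

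The CTP synthase genes moved in opposite directions. Ctps (ENSMUSG00000028633) had 14.0, 11.7 and 11.9 FPKM in Initial and 24.7, 26.1 and 26.4 FPKM in Induced libraries, a log2 change of 0.99 (SE 0.08, adjusted p = 2.2e-05). Ctps2 (ENSMUSG00000031360), on the X chromosome, had 60.3, 58.9 and 56.5 FPKM before and 48.9, 41.3 and 54.4 FPKM after culture, a log2 change of -0.28 (SE 0.10, adjusted p = 0.0324). Every Induced library of Ctps2 was below every Initial library, with Induced C close to Initial C, and Ctps2 stayed the more abundant message in all 6. The call of Ctps2 was lost without Initial A, Initial B, Induced A or Induced B (adjusted p = 0.0943, 0.0805, 0.0687 and 0.0906), and without Induced B its log2 fold change was -0.18. It was also lost when low genes were not filtered out (adjusted p = 0.0732) and under CD3/Trdc scaling (log2 change -0.061). The ratio of Ctps to Ctps2 was 0.232, 0.198 and 0.211 in Initial and 0.505, 0.631 and 0.485 in Induced libraries, and the log2 ratio differed by 1.33 (exact permutation p = 0.1, adjusted 0.133). Over the 8 pyrimidine genes, summed FPKM went from 284 ± 23.1 to 413 ± 28.9, 1.46-fold.

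Both PRPP synthetase genes, which supply the sugar donor of either pathway, fell slightly with the values as deposited, and under CD3/Trdc scaling neither passed and Prps2 turned to 0.041. A stretch before Prps1 (chrX:140456403-140456602, plus strand) is printed as that of a gene that fell, and it too holds CCAAT, in capitals.
Prps1: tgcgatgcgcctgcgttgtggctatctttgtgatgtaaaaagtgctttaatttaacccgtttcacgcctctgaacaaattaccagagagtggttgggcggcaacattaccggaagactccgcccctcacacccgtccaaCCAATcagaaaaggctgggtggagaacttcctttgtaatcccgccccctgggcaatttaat
Prps1 (ENSMUSG00000031432) had 66.3, 64.0 and 62.7 FPKM in Initial and 54.2, 48.3 and 57.4 FPKM in Induced libraries, a log2 change of -0.27 (SE 0.08, adjusted p = 0.0135). Prps2 (ENSMUSG00000025742) had 23.5, 23.7 and 22.5 FPKM before and 21.1, 19.5 and 20.8 FPKM after culture, a log2 change of -0.18 (SE 0.07, adjusted p = 0.0430). The groups do not overlap for either gene. The call of Prps1 held without any 1 library, while that of Prps2 was lost without any 1 of the 6 (adjusted p = 0.0544 to 0.146) and with the mouse as a block (adjusted p = 0.0793). That of Prps2 was also lost with low genes not filtered out (adjusted p = 0.0624) and in an ordinary moderated test (0.0571). The ratio of Prps1 to Prps2 was 2.82, 2.70 and 2.78 in Initial and 2.57, 2.48 and 2.76 in Induced libraries, with overlapping groups and a difference of -0.09 on the log2 scale (exact permutation p = 0.2, adjusted 0.229).

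All 6 genes of IMP synthesis rose, by 0.23 to 1.12 on the log2 scale. Ppat encodes the amidotransferase that starts the pathway from PRPP, Gart a trifunctional enzyme, and Pfas, Paics, Adsl and Atic the enzymes of the later steps. Adsl also acts in the AMP branch. Paics (ENSMUSG00000029247) had 59.0, 56.0 and 60.3 FPKM in Initial and 130, 121 and 134 FPKM in Induced libraries, a log2 change of 1.12 (SE 0.07, adjusted p = 2.8e-06). Pfas (ENSMUSG00000020899) had 4.35, 4.38 and 4.76 FPKM before and 8.59, 8.11 and 10.3 FPKM after culture, a log2 change of 0.86 (SE 0.11, adjusted p = 0.000179). For both genes every Induced library was above every Initial library. Ppat had 15.5, 14.4 and 14.4 FPKM in Initial and 23.5, 21.3 and 26.5 FPKM in Induced libraries, a log2 change of 0.65. Ppat and Paics lie head to head on opposite strands and share 272 bases, so fragments there could be given to either. Gart had 31.8, 32.3 and 32.6 FPKM before and 42.6, 43.1 and 57.6 FPKM after culture, a log2 change of 0.54. Atic had 10.1, 8.13 and 8.62 FPKM before and 11.8, 12.5 and 13.7 FPKM after it, a log2 change of 0.46. Induced C stood above A and B for Gart, and the groups overlap for neither gene. Adsl had 26.0, 28.0 and 31.3 FPKM in Initial and 34.0, 32.1 and 34.5 FPKM in Induced libraries, and its log2 fold change of 0.23 was the smallest of the 6. The call of Adsl was lost without Initial A, Initial B, Induced A or Induced C (adjusted p = 0.103, 0.0810, 0.0964 and 0.0713). It was also lost with low genes not filtered out, under TMM-kind scaling and under quantile normalization (adjusted p = 0.0640, 0.0622 and 0.05155). Over the 6 genes, summed FPKM went from 147 ± 4.47 to 255 ± 19.8, 1.73-fold.

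The branches from IMP to AMP and GMP did not rise as a group. Among the 6 genes were 1 that rose, 2 that fell and 3 that did not pass. Their summed FPKM was 207 ± 4.56 in Initial and 202 ± 21.2 in Induced cells. Adss, which with Adsl leads to AMP, had 37.7, 38.5 and 38.2 FPKM before and 39.5, 36.6 and 42.0 FPKM after culture. The Induced libraries lie on both sides of the Initial ones, and the log2 fold change was 0.043 (SE 0.07, 95% interval -0.12 to 0.20, adjusted p = 0.591). Adssl1, the form known from muscle, had 6.73, 7.03 and 3.92 FPKM in Initial and 3.73, 3.68 and 3.71 FPKM in Induced libraries, a log2 change of -0.52 (SE 0.18, adjusted p = 0.0356). Initial C was near the Induced level, and Initial A and B were above it. Its call was lost without any of Initial A, Initial B, Induced A, Induced B and Induced C (adjusted p = 0.118, 0.122, 0.0807, 0.0805 and 0.0642). It was also lost with low genes not filtered out, under quantile normalization and under CD3/Trdc scaling (adjusted p = 0.08045, 0.06421 and 0.165). The ratio of Adss to Adssl1 was 5.60, 5.48 and 9.75 before and 10.6, 9.95 and 11.3 after culture, a log2 difference of 0.67 (exact permutation p = 0.1, adjusted 0.133).

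On the GMP side, the IMP dehydrogenase genes, which encode the rate-limiting step, moved apart. Impdh2, the form known to rise in dividing lymphocytes, had 55.1, 53.2 and 55.2 FPKM in Initial and 59.4, 60.0 and 72.3 FPKM in Induced libraries, a log2 change of 0.22 (SE 0.09, adjusted p = 0.0481). Impdh1 had 55.4, 54.3 and 57.9 FPKM before and 41.9, 42.4 and 54.6 FPKM after culture, a log2 change of -0.28 (SE 0.11, adjusted p = 0.0442). For Impdh2 the groups do not overlap, and for Impdh1 Induced C lies above Initial B. The call of Impdh2 was lost without Initial A, B or C or Induced B or C (adjusted p = 0.0518 to 0.119, log2 fold change 0.13 without Induced C), and that of Impdh1 without Initial A, B or C or Induced A or B (adjusted p = 0.0794 to 0.153). With low genes not filtered out both calls were lost (adjusted p = 0.0947 and 0.0974), as in an ordinary moderated test (0.0719 and 0.0634). That of Impdh2 was also lost under TMM-kind scaling (adjusted p = 0.0774) and quantile normalization (0.1285). That of Impdh1 was also lost under CD3/Trdc scaling (log2 change -0.054). The ratio of Impdh2 to Impdh1, free of scaling, was 0.994, 0.979 and 0.954 in Initial and 1.42, 1.42 and 1.32 in Induced libraries, a log2 difference of 0.51 (exact permutation p = 0.1, adjusted 0.133). Impdh2 shares 48 bases with Ndufaf3 on the other strand (10.01 to 20.6 FPKM). Gmps, GMP synthetase, had 13.3, 13.2 and 12.6 FPKM before and 13.3, 12.8 and 13.5 FPKM after culture, with overlapping groups and a log2 change of 0.021 (SE 0.07, 95% interval -0.14 to 0.18, adjusted p = 0.800). Guk1, guanylate kinase, had 38.8, 36.8 and 44.3 FPKM before and 34.6, 32.1 and 40.3 FPKM after it, with overlapping groups and a log2 change of -0.16 (SE 0.10, 95% interval -0.40 to 0.08, adjusted p = 0.194). Under CD3/Trdc scaling, Adss (0.26, adjusted p = 0.0174) and Gmps (0.23, adjusted p = 0.0473) passed as higher. Guk1 passed as lower without Induced C (-0.25, adjusted p = 0.0427) or quantile normalized (-0.22, adjusted p = 0.0486), and its log2 change was -0.087 without Initial C and -0.091 without Induced B.

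Summed over all 31 genes, FPKM was 1092, 1043 and 1113 in Initial libraries A, B and C and 2086, 2081 and 2156 in Induced libraries. The members held 0.241 to 0.247% of all listed FPKM before and 0.466 to 0.475% after culture. The reductase and thymidylate groups made up the larger part of this gain. Among the Induced libraries, C was the highest for 22 of the 31 genes (71.0%) and for 19 of the 22 ribonucleotide genes (86.4%), against 3 of the 8 deoxynucleotide genes (37.5%) and 45.3% of all tested genes.

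**Figure D4:**
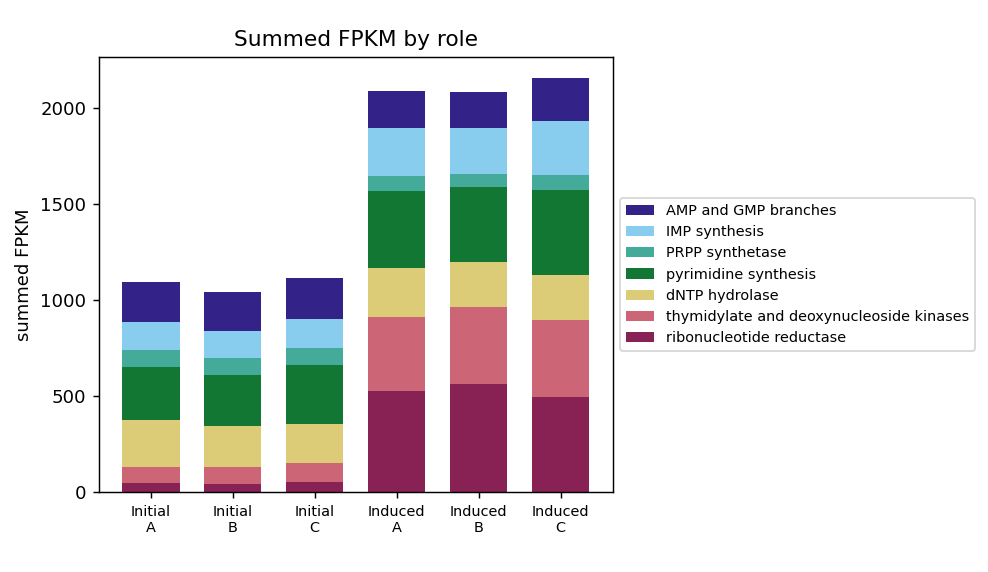
Summed FPKM of the 31 genes in each of the 6 libraries, stacked by role from 0. The reductase, thymidylate, pyrimidine and IMP bands are wider in all 3 Induced libraries than in any Initial library. The PRPP synthetase band is not, and the AMP and GMP band is so in Induced C only (226 FPKM).

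Of 75 other genes of nucleotide metabolism and proliferation, 68 were tested, of which 41 rose, 14 fell and 13 did not pass, against 37.3% higher and 33.1% lower over all tested genes. Without the proliferation genes, 30 of 57 rose and 14 fell. All 11 proliferation genes rose, with a median of 2.08 on the log2 scale, led by the cyclin genes Ccnb1 (3.52 ± 0.301 to 86.4 ± 6.64 FPKM, 4.27) and Ccna2 (6.52 ± 0.800 to 137 ± 8.53 FPKM, 4.20). These changes are of the size of those of Rrm2 and Tk1. Of 9 genes of folate and one-carbon supply 5 rose, 0 fell and 4 did not pass. Among those that rose was Shmt1, which loads folate with its one-carbon unit (5.28 ± 0.290 to 19.8 ± 0.582 FPKM, 1.73). Of 6 tested genes of the pentose phosphate pathway, which makes the ribose of PRPP, 4 rose and 2 did not pass. G6pdx, the entry enzyme, went from 32.2 ± 3.76 to 62.9 ± 10.99 FPKM (0.93), and Pgls from 29.6 ± 3.77 to 53.8 ± 2.64 FPKM (0.85).

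Of 10 tested salvage genes 5 rose, 4 fell and 1 did not pass, which is not far from the shares of all tested genes (37.3% higher, 33.1% lower). Aprt, which salvages adenine, went from 35.2 ± 5.87 to 105 ± 11.1 FPKM (log2 fold change 1.56), and Slc29a1, a nucleoside transporter, from 56.3 ± 1.47 to 110.3 ± 0.856 FPKM (0.96). Adk, adenosine kinase, fell from 94.3 ± 9.48 to 33.8 ± 6.17 FPKM (-1.46), and Tk2, the mitochondrial thymidine kinase, from 43.6 ± 1.28 to 20.8 ± 1.55 FPKM (-1.03). Tk2 thus moved in the opposite direction to the cytosolic Tk1. Of 17 nucleotide kinases and pool-sanitising genes 11 rose, 5 fell and 1 did not pass. Dctpp1, a pyrophosphatase of the deoxycytidine pool, went from 7.09 ± 1.09 to 24.6 ± 2.36 FPKM (1.66). Ak1, an adenylate kinase, had no row in Initial A and C, taken as 0, and 0.0565 FPKM in Initial B, against 5.26, 5.19 and 2.37 FPKM in Induced libraries (2.32). The mitochondrial pyrimidine carriers Slc25a33 (10.4 ± 0.805 to 3.88 ± 0.252 FPKM, -1.22) and Slc25a36 (24.3 ± 3.98 to 10.95 ± 0.410 FPKM, -1.07) fell. Of 15 tested breakdown genes 5 rose, 5 fell and 5 did not pass. Upp1, uridine phosphorylase, went from 0.290 ± 0.0306 to 9.49 ± 1.32 FPKM (3.02) and Pnp, purine nucleoside phosphorylase, from 28.3 ± 0.612 to 57.7 ± 5.08 FPKM (0.999). The AMP deaminase gene Ampd3 fell from 3.45 ± 0.465 to 0.0661 ± 0.0508 FPKM (-2.06). Ampd1 had 1.36, 1.59 and 1.82 FPKM in Initial libraries and no row in any Induced library, taken as 0 (-1.37).

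**Figure D5:**
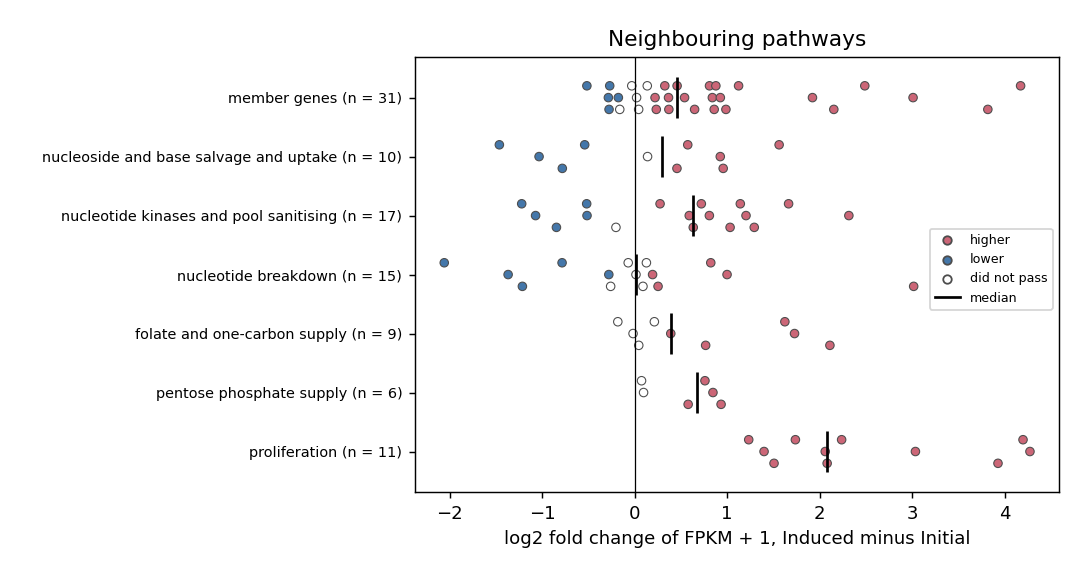
Log2 fold change of FPKM + 1, Induced minus Initial, of the 31 genes (top row) and of each tested gene in 6 lists of neighbouring pathways, coloured by call, with a bar at the median of each list. All 11 proliferation genes lie to the right of 0, and the salvage and breakdown genes lie on both sides of it.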

How the data were processed

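Gene-level FPKM tables of 6 messenger RNA libraries were used as the authors deposited them. Per the labels, libraries were made with a VAHTS mRNA-seq kit. The tools named in the submitters' processing notes are Cuffdiff (1.3.0 and 2.2.1), HISAT2 2.0.5 and CASAVA, and the build is mm9, but the deposited positions fit GRCm38: 90.7% of the 26669 gene IDs found in GENCODE M21 lie inside the deposited span. Coordinates here are GRCm38. The strand setting was not given in the sources used here. No listed value is 0, so a gene without a row was taken as 0, and 24 symbols turned into dates were restored.

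Groups came from the sample titles. The same mouse letters stand in the titles of both groups, and the pairing of libraries by animal rests on these titles alone. Deviations from the group means correlated at 0.0393, 0.0307 and 0.131 for the same letter and at -0.132 to 0.0988 for different letters.

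The test was limma 3.58.1 (R 4.3.3) on log2(FPKM + 1), two-sided and unblocked, with trend and robust options. It took in the 11265 genes that reached FPKM 1 in 3 or more libraries, with Benjamini-Hochberg adjustment over all of them. The fit was checked on simulated data with independent noise and few changed genes, all raised. That check does not give the rate of false calls in these data. Ratios of paired genes were compared with exact permutation tests, and sums by role are given without a test. Depth came from low values, as the trial depth at which the largest share of them lay within 0.15 of a whole fragment (46.1 to 50.2%). Chance gives 30% at a depth fixed beforehand, and more at a depth chosen this way. Figures used matplotlib 3.10.9, and tables pandas 2.3.3, scipy 1.17.1 and numpy 2.4.6 in Python 3.11.15.

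Values in every library are given for every gene of the set, and fold change, SE and adjusted p for the 2 largest rises and 2 largest falls in each role group and for each gene that did not pass. From each other list the 2 largest rises and 2 largest falls are named. Of the genes this takes, 1 is not reported here. The members and lists were chosen with earlier results of these data known. Alternatives were pseudocounts of 0.1 and 5, no filter, a filter at FPKM 5, TMM-kind, common-sum, quantile and CD3/Trdc scaling, an ordinary moderated test, a block for the mouse, and each library left out in turn.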

Additional observations from a re-analysis of the deposited data

How the results depend on the processing

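Of the 31 genes, 18 kept their direction and their side of the threshold in all 16 alternatives, among them every reductase, thymidylate and kinase gene that rose, and 13 did not. The 5 falls became 1 without a filter, 0 under CD3/Trdc scaling, 3 with an ordinary moderated test, and 1 to 4 when a library was left out. With the mouse as a replicate block 21 genes rose and 4 fell, the call of Prps2 was lost, and no other call of the 31 changed. Across all tested genes 66.8% of calls were higher under CD3/Trdc scaling (5389 higher, 2674 lower), against 52.9%.

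Signs turned for genes that had not passed, and for Prps2. Under CD3/Trdc scaling the log2 fold change was 0.15 for Rrm2b, 0.041 for Prps2 and 0.060 for Guk1. TMM-kind scaling gave -0.011 for Adss and -0.031 for Gmps, and quantile normalization -0.024 for Adss, -0.031 for Gmps and 0.044 for Rrm2b. Over the libraries left out, Rrm2b ran from -0.14 to 0.092, positive without Initial B or Induced B, Adss from -0.0038 (without Induced C) to 0.094, and Gmps from -0.0028 (without Initial C) to 0.040. The filter at FPKM 5 removed Rrm2b and Adssl1. The difference of the Nme1:Nme2 log2 ratio ran from -0.076 to 0.11 over the libraries left out.

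Under CD3/Trdc scaling the log2 change of summed FPKM was 3.75 for the reductase, 2.34 for the thymidylate group, 0.36 for Samhd1, 0.77 for pyrimidine, -0.022 for PRPP, 1.02 for IMP, and 0.19 for the AMP and GMP branches. That scaling divided Initial values by 1.04 to 1.14 and Induced values by 0.908 to 0.954. Its T cell markers were together lower in Induced libraries, so Induced values rose against Initial ones. Why these markers were lower, and the cause of the other changes, was not tested. Small changes are limited by 3 libraries per group and a depth known only roughly.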

Other observations

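The 3 X-linked genes of the set, Prps1, Prps2 and Ctps2, all fell, and of the 28 on other chromosomes 21 rose and 2 fell. This grouping was chosen after the values were seen. Under CD3/Trdc scaling none of the 3 passed (log2 fold change -0.047 for Prps1, 0.041 for Prps2 and -0.061 for Ctps2). The call of Prps2 was also lost without any 1 library, and that of Ctps2 without Initial A, Initial B, Induced A or Induced B. Among all tested genes, 30.3% of 333 X-linked genes rose and 35.1% fell, with a median log2 fold change of -0.022, against 37.5% and 33.1% of 10919 genes on other chromosomes and a median of 0.031. The mitochondrial deoxynucleoside kinase genes Tk2 and Dguok both fell, Dguok from 45.3 ± 1.43 to 30.9 ± 2.45 FPKM (SD, n = 3, log2 fold change -0.54). Dguok was singled out after its values were seen.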
